A study of Mus musculus with 8 samples.

Results

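Imprinted genes are described here in primordial germ cells (the cells that later give rise to gametes) of mouse embryos at embryonic day 11.5. The set is a list of 34 well known imprinted genes at 15 loci, taken by name. It was chosen with earlier results of these data known. Of these, 29 had a value among the 21444 genes with a value in the files, and 23 of those passed the filter on low counts and were among the 10990 genes tested. Airn, Sgce, Snurf, Kcnq1ot1 and Nespas were listed in none of the 8 libraries and are not analysed here. The 4 Control libraries came from Blimp1Cre;Prmt5flox/+ embryos and the 4 Prmt5 KO libraries from Blimp1Cre;Prmt5flox/flox embryos, on a mixed C57BL/6 and 129 background. Both groups therefore carry Cre under Blimp1, a gene that acts in germ cell precursors and also in other embryonic cells, and Control cells can lose at most 1 of their copies of Prmt5. Prmt5 encodes an enzyme that puts symmetric dimethyl marks on arginines of histones and splicing proteins. Cells with the dPE_Oct4 GFP reporter, which is active in germ cells, were isolated by flow sorting, and each library started from 50 pg of total RNA. Nothing in the labels says whether libraries of a group are from different embryos or litters, so p-values here measure the spread among these libraries alone, and part of it may be technical.

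An imprinted gene is transcribed mainly from the copy inherited from 1 parent, because a DNA methylation mark laid down in that parent's germ line, or a change that follows from it, silences the other copy. Primordial germ cells strip these marks from both copies during the wave of DNA demethylation that passes through the period sampled, before new marks are set according to the sex of the embryo. The genes are called paternal or maternal below by the copy that is active in the tissues where they are imprinted. The counts do not separate the parental copies and methylation was not measured, so neither biallelic expression nor loss of an imprint can be read from them.

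The imprinted genes ranged from well expressed to nearly silent. Levels are given as CPM, the read count scaled to library size after TMM normalisation. Peg3 was the highest by CPM, with a mean over the 8 libraries above that of 97.2% of genes with a value, and held 28.5% of all counts on the set. Snrpn, Gnas, Mest and Phlda2 followed. Per kilobase of transcript, which allows genes to be set side by side if coverage along transcripts is even (not tested), the order was Phlda2 (69.2 CPM per kb), Snrpn (68.7), Peg3 (30.8), Mest (26.8) and H19 (21.1). Phlda2 and Snrpn differed by less than their spread between libraries. At the other end Dlk1 and Rtl1 were at 0.0336 and 0.0204 CPM per kb. A count was found in all 8 libraries for 23 genes. Together the 29 genes held between 0.0720% and 0.127% of the gene counts of a library, lowest in Prmt5 KO 4 and highest in Prmt5 KO 1. The maternal genes made up between 19.9% and 25.9% of the summed CPM of both parental classes in Control libraries and between 19.9% and 27.5% in Prmt5 KO libraries, so these ranges overlapped.

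**Figure D1:**
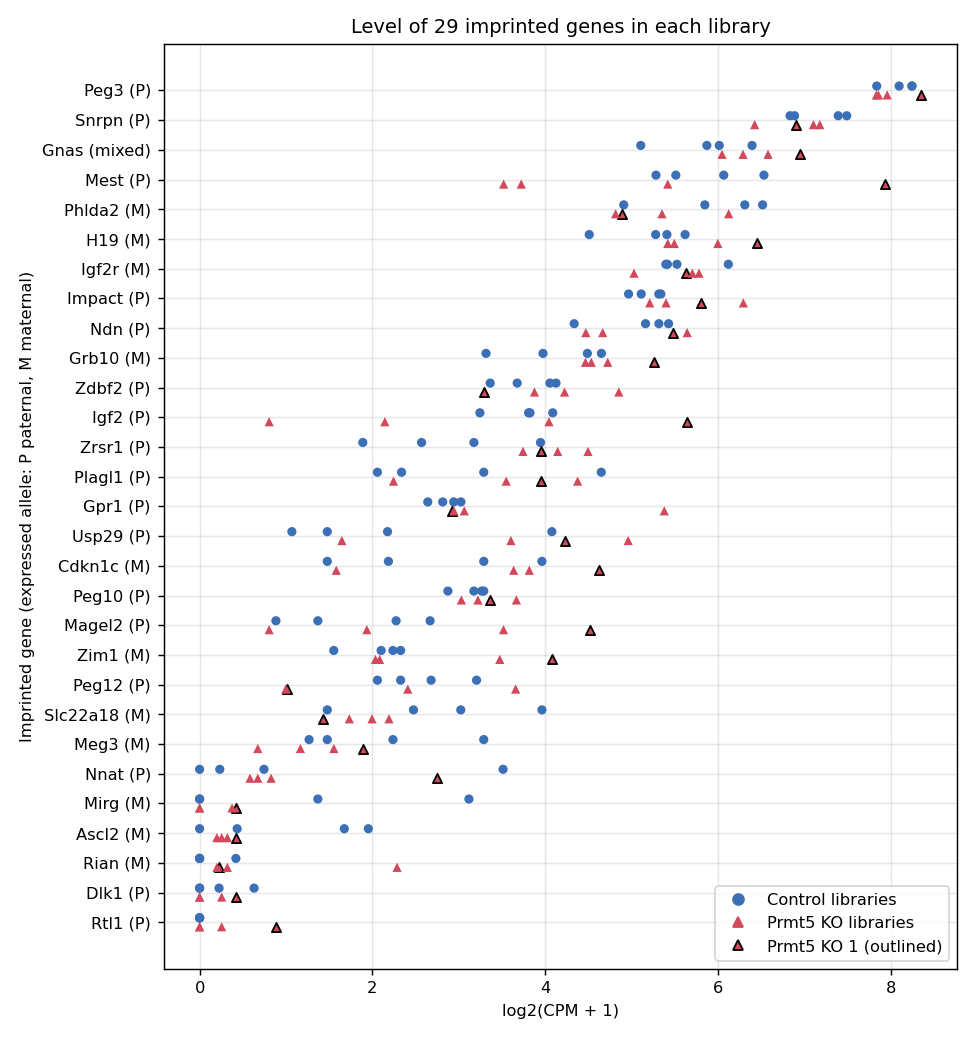
Level of each of the 29 imprinted genes with a value, as log2(CPM + 1) on the x axis, in 4 Control libraries (circles) and 4 Prmt5 KO libraries (triangles, Prmt5 KO 1 outlined). For every gene tested the 2 groups overlap, and Prmt5 KO 1 is the highest library for 9 of the 23 tested genes, among them Mest, Igf2 and H19.

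The libraries held between 1811433 (Control 3) and 6549498 (Prmt5 KO 3) gene counts. Prmt5 was at 89.4 to 172 CPM in Control and at 26.4 to 39.9 CPM in Prmt5 KO, with no overlap (log2 fold change -1.95, adjusted p = 0.0388 in edgeR). Its direction held under all 17 alternatives, but it passed in only 5 of them, with an adjusted p from 9.69e-09 in DESeq2 to 0.76 without Control 2 and 3. Leaving out any 1 library other than Control 1 ended the call (adjusted p from 0.0578 to 0.233, log2 fold change from -2.01 to -1.82). Germ cell markers were abundant in every library: all 15 on the list were tested, and they summed to 4290 to 4870 CPM (Control) and 4390 to 5460 CPM (Prmt5 KO). Markers of somatic gonad and mesonephros summed over 17 genes to 34.8 to 82.6 CPM in Control and to 40.1 to 57.2 in 3 Prmt5 KO libraries, but to 630 in Prmt5 KO 1. Of those 17 genes, 7 were tested, with a median log2 fold change of 2.30. The lowest adjusted p in edgeR was 0.459 (Acta2), and Pax8 went the other way (-1.02). Acta2 was at 208 CPM in Prmt5 KO 1 and at 2.71 to 5.95 CPM in the other Prmt5 KO libraries. Endothelial markers (7 genes) summed to 19.2 to 44.6 CPM in Control and 23.1 to 92.2 in Prmt5 KO, and 3 of them were tested. Tek, the endothelial angiopoietin receptor gene, was at 4.46 to 28.9 CPM in Control and 12.2 to 72.4 in Prmt5 KO (log2 fold change 2.05, adjusted p = 0.409 in edgeR, though called by DESeq2), Egfl7 had a log2 fold change of -1.18 and Esam one of -0.20. Of the untested ones Cdh5 had 59 counts, Tie1 9, Kdr 3 and Emcn 1 in all 8 libraries. Blood markers summed to 23.3 to 43.1 and 6.98 to 40.9 CPM, nearly all of it Csf1r, and 4 of the 13 (Hba-a1, Hba-a2, Hbb-bt and Hbb-y) were not listed. Csf1r exons overlap those of Hmgxb3 on the opposite strand, and reads of that pair cannot be told apart if counting ignored the strand. Ptprc, Lyz2 and Fcer1g had 1 count each in all 8 libraries. Prmt5 KO 1 and Prmt5 KO 4 also stood apart from the other libraries over all genes: Prmt5 KO 4 lay at -2.69 on dimension 1 of a multidimensional scaling, with the others from 0.21 to 0.86, and Prmt5 KO 1 at -2.26 on dimension 2, with the others from -0.40 to 0.89.

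Between the genotypes the imprinted genes gave no call. Among 23 tested genes, 0 were higher and 0 lower in Prmt5 KO at an adjusted p under 0.05 in edgeR's quasi-likelihood test, where 0.0273% of all genes tested were called (0.0182% higher and 0.0091% lower). The adjusted p ran from 0.657 for Slc22a18 to 0.992 for Ndn. At an unadjusted p under 0.05 the count was also 0, against 8.15% of all genes tested. DESeq2 called 0 of the 23 and 0.974% of all genes. At an unadjusted p under 0.05 it had 0 of the 23 and 10% of all genes. However, 3 of the 23 (Mest, Meg3 and Gpr1) had no adjusted p in DESeq2, so it could not call these. The limma voom test called 0 of the 23 and 0.0091% of all genes, with 1 (Zrsr1) and 8.33% at an unadjusted p under 0.05. For 0 of the 23 genes did the 4 Prmt5 KO libraries all lie above or all below the 4 Control libraries, which they did for 4.90% of all genes tested. The log2 fold change was above 0 for 16 of 23 genes and for 52.7% of all genes tested, with a median of 0.37 against 0.03 over all genes. In limma voom 13 of the 23 were above 0. Without Prmt5 KO 1 it was above 0 for 14 of 22, with a median of 0.26, and without Prmt5 KO 1 and Prmt5 KO 4 the median was 0.15, against -0.03 over all genes. The 14 tested paternal genes had a median of 0.37 and the 8 maternal genes one of 0.27. On counts simulated with the spread of these data, changes were put only into genes above 10 CPM. There edgeR found 16% of the 2-fold changes and 75% of the 4-fold changes, with 100 genes changed at each size. The adjustment of p is less strict when many genes change, and in the data themselves edgeR called only 3 genes. Both rates may therefore be too high for these data, and 75% cannot be taken as the chance of finding a 4-fold change here. Changes of 2-fold were mostly not detectable even in the simulation. These rates do not cover tested imprinted genes of lower mean level, such as Meg3 (2.77 CPM) and Slc22a18 (4.83 CPM).

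**Figure D2:**
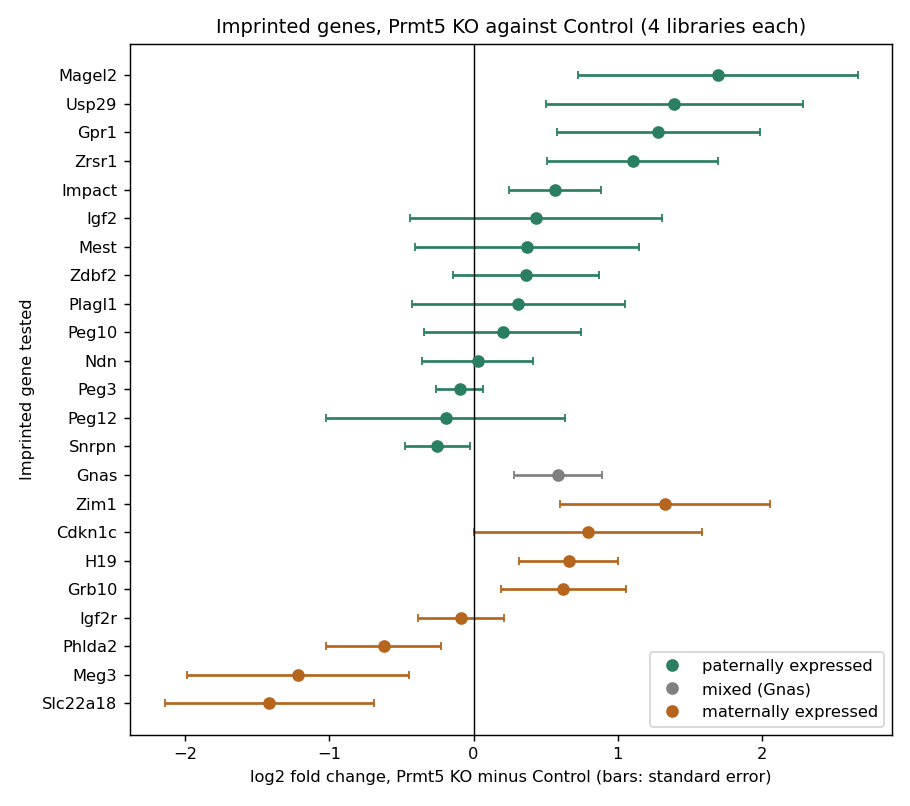
Log2 fold change of the 23 tested imprinted genes (x axis, Prmt5 KO minus Control, bars the standard error, 4 libraries each), sorted within paternally expressed genes (top), Gnas and maternally expressed genes (bottom). Values run from -1.42 (Slc22a18) to 1.69 (Magel2), and none passed the test.

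The first group is the IGF2 growth system, in which imprinted genes of both classes encode parts of 1 pathway. Igf2 (chromosome 7, 142650766 to 142666816, GRCm38, minus strand) encodes a foetal growth factor. It was at 13.01, 8.48, 13.2 and 16.0 CPM in the Control libraries (1 to 4 in order, here and below), against 48.8, 15.5, 3.42 and 0.748 CPM in the Prmt5 KO libraries. Prmt5 KO 1 thus lay above every Control library, Prmt5 KO 3 and 4 below every one, and Prmt5 KO 2 within their range. The log2 fold change of 0.43 (standard error 0.873) became -0.95 without Prmt5 KO 1. H19 (chromosome 7, 142575529 to 142578143, minus strand), the neighbouring long noncoding RNA that is active on the other parental copy, was at 21.8, 41.5, 37.9 and 48.2 CPM in Control and 86.6, 63.0, 41.8 and 44.1 CPM in Prmt5 KO. The means were 37.3 ± 11.2 and 58.9 ± 20.8 CPM (Control, then Prmt5 KO, SD, n = 4), and the log2 fold change of 0.66 had a standard error of 0.343 (adjusted p = 0.663 in edgeR). Prmt5 KO 1 and 2 were above every Control library, and the other pair lay within the Control range. Small RNA genes, among them Mir675, overlap its exons, and their reads are not separable from those of H19.

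**Figure D3:**
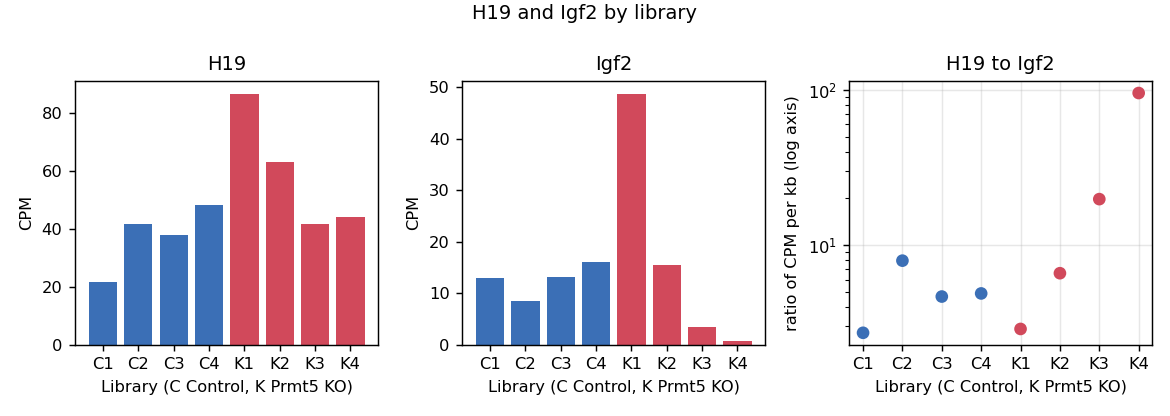
H19 and Igf2 in CPM in each of the 8 libraries (bars, Control C1 to C4, Prmt5 KO K1 to K4) and the ratio of their levels per kilobase on a log axis (points). The ratio is 2.72 to 7.94 in Control and 2.88 to 95.7 in Prmt5 KO, highest in Prmt5 KO 4, where Igf2 had 3 counts.

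Per kilobase, H19 was above Igf2 in all 8 libraries. The ratio was 2.72, 7.94, 4.66 and 4.88 in the Control libraries, against 2.88, 6.59, 19.8 and 95.7 in the Prmt5 KO libraries. The last value rests on 177 counts of H19 and 3 of Igf2, with an exact 95% interval from 32.2 to 468, which covers counting error only. Prmt5 KO 3 and 4 lay above the Control range, Prmt5 KO 1 and 2 within it. In those 2 libraries with a high ratio it was Igf2 that was low, while H19 was within its Control range.

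Igf2r (chromosome 17, 12682406 to 12769664, minus strand) encodes the maternally expressed receptor that takes IGF2 to the lysosome. It was at 68.6, 45.1, 41.1 and 41.7 CPM in Control and 48.6, 51.2, 54.0 and 31.6 CPM in Prmt5 KO, a log2 fold change of -0.09 (standard error 0.301). Control 1 was the highest library and Prmt5 KO 4 the lowest. Grb10 (chromosome 11, 11930508 to 12038683, minus strand), an adaptor that restrains insulin and IGF receptor signalling and is maternal in most tissues, was at 8.96, 14.7, 24.1 and 21.5 CPM in Control and 37.3, 21.1, 25.4 and 22.2 CPM in Prmt5 KO. Its 2 main transcripts start at different promoters but had the same count in every library, so promoter use cannot be told apart. Plagl1, which encodes the zinc finger factor ZAC1, ranged from 3.17 to 24.1 CPM in Control and from 3.74 to 19.8 in Prmt5 KO.

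Promoter windows of 4 of the most abundant genes are printed here to show the sequence at their start sites: the start sites of Peg3, Snrpn and Mest lie in regions that carry a maternal methylation mark in body tissues, whereas Phlda2 is silenced on the paternal copy through a neighbouring region. Each window runs from 250 bases before to 50 after an annotated start (RefSeq, GRCm38.p6) and is written 5′ to 3′ on the strand of the gene. Capitals mark TGCCGC or its reverse complement GCGGCA, the core motif that the imprint-protecting protein ZFP57 binds when it is methylated.
Peg3 (chr7:6730370-6730669, minus strand): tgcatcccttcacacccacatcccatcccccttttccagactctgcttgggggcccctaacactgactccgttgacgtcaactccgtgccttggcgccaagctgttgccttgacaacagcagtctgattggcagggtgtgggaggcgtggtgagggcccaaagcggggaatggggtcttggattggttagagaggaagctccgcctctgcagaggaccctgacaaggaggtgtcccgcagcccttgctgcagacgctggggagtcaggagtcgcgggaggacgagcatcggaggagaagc
Snrpn (chr7:60005150-60005449, minus strand): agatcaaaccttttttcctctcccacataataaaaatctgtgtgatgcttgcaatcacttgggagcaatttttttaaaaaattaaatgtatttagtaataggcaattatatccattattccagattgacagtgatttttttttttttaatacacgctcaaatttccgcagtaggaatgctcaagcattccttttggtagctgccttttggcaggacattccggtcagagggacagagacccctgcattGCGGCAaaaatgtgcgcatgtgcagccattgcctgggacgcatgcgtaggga
Mest (chr6:30737800-30738099, plus strand): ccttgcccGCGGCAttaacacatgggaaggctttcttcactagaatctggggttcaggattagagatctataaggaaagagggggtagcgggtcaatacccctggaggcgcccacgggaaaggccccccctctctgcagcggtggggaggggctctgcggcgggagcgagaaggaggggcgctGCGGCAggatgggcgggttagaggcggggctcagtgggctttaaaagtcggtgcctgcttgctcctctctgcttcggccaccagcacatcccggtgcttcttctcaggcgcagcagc
Phlda2 (chr7:143502475-143502774, minus strand): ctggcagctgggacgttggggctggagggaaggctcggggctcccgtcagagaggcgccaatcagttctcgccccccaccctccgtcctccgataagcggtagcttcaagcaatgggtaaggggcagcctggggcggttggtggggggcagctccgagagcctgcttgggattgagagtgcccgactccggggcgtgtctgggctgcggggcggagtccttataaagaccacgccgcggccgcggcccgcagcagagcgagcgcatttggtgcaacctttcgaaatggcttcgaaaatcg
The motif, searched on both strands, was found 2 times in the Mest window, 1 time in the Snrpn window and 0 times in the Peg3 and Phlda2 windows. It was in 11.6% of all 32851 windows of this length and in 11 of the 42 windows of 27 genes of the set that matched by symbol (some windows overlap, and Snrpn and Snurf share 1). The CpG count was 13 in the Peg3, 7 in the Snrpn, 17 in the Mest and 26 in the Phlda2 window. Its median was 7 over all windows and 11.5 over the 42 windows of the set. The motif itself holds a CpG, and its shares were not compared at equal CpG count. Cdkn1c, H19, Impact, Nespas, Peg10, Rtl1 and Sgce had no window. A match is only a match of letters, and its absence from a window says nothing of the rest of the locus.

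Peg3 and its neighbours form the proximal cluster of chromosome 7. Peg3 (6703892 to 6730431, minus strand), a large zinc finger protein expressed from the paternal copy, was at 273, 303, 303 and 228 CPM in Control and 327, 248, 231 and 227 CPM in Prmt5 KO. The means were 277 ± 35.3 and 258 ± 46.4 CPM (Control, then Prmt5 KO, SD, n = 4), with a log2 fold change of -0.10 and a standard error of 0.166. Of the 23 tested genes it had the smallest ratio of highest to lowest library, and Prmt5 KO 1 was the only library above the Control range. Usp29, a paternally expressed gene of the ubiquitin protease family, has an annotated start on the opposite strand at almost the same place: 263 bases of its promoter window are also in the Peg3 window printed above. Its counts, however, are those of Usp29-201, a model of 1 exon (6961160 to 6963769) that lies far downstream of that start, so they do not measure use of the shared start. Usp29 was uneven between libraries, at 15.9, 1.79, 1.10 and 3.52 CPM in Control and 17.7, 2.13, 11.2 and 30.2 CPM in Prmt5 KO. High libraries (Control 1 and Prmt5 KO 1, 3 and 4) and low ones (Control 2, 3 and 4 and Prmt5 KO 2) occurred in both groups, and its log2 fold change was 1.39 (standard error 0.891), with 2.75 without Control 1, 0.83 without Prmt5 KO 4 and 0.20 without Prmt5 KO 1 and 4. Its exons overlap Zim3 on the opposite strand. Zim1, the maternally expressed zinc finger gene of the cluster, was at 3.72, 4.02, 3.29 and 1.94 CPM in Control and 15.9, 3.10, 10.1 and 3.24 CPM in Prmt5 KO (log2 fold change 1.33, standard error 0.726), with Prmt5 KO 1 and 3 above every Control library.

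Mest (chromosome 6, 30723547 to 30748465, plus strand) encodes a hydrolase-like protein abundant in embryonic mesoderm, from the paternal copy. It was at 66.1, 38.0, 91.6 and 44.7 CPM in Control and 244, 12.2, 41.8 and 10.5 CPM in Prmt5 KO. Prmt5 KO 1 was above every Control library, Prmt5 KO 2 and 4 were below every one, and Prmt5 KO 3 lay between them. The log2 fold change was 0.37 (standard error 0.776) and became -1.47 without Prmt5 KO 1 (edgeR adjusted p = 0.472). Mest exons overlap those of Copg2 on the opposite strand, and Copg2 was also highest in Prmt5 KO 1, at 199 CPM. Reads of the pair cannot be told apart if counting ignored the strand.

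The Snrpn cluster on chromosome 7, whose human counterpart is lost in Prader-Willi syndrome, holds paternally expressed genes. Snrpn (59982495 to 60140219, minus strand) encodes SmN, a core splicing protein related to the SmB proteins that PRMT5 methylates. It was at 113, 179, 117 and 167 CPM in Control and 119, 137, 144 and 85.0 CPM in Prmt5 KO, a log2 fold change of -0.25 (standard error 0.228). Only Prmt5 KO 4 was below the Control range. The exons of Snurf lie on the same transcript and are counted with it. Ndn, which encodes the growth suppressor necdin, was at 42.1, 34.8, 19.2 and 38.9 CPM in Control and 43.7, 49.0, 24.4 and 21.2 CPM in Prmt5 KO. Magel2, a MAGE family partner of ubiquitin ligases, was at 0.845, 5.36, 3.84 and 1.58 CPM in Control and 21.9, 10.5, 2.83 and 0.748 CPM in Prmt5 KO. It had the largest log2 fold change of the set, 1.69 (standard error 0.968, adjusted p = 0.694 in edgeR), and 0.76 without Prmt5 KO 1. Prmt5 KO 1 and 2 were above every Control library and Prmt5 KO 4 was below every one. Peg12, related to the FRAT proteins of Wnt signalling, was at 3.17 to 8.23 CPM in Control and at 0.997 to 11.6 in Prmt5 KO.

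Genes of the Dlk1-Meg3 cluster on chromosome 12 were scarce throughout. Dlk1, the paternally expressed transmembrane ligand, had 5 counts over all 8 libraries, and the retrotransposon-derived Rtl1 had 6, of which 5 were in Prmt5 KO 1. Rtl1 had 0 counts in each Control library, which allows up to 0.507, 1.34, 1.65 and 0.528 CPM in Control 1 to 4 (3 counts). Meg3, the maternally expressed long noncoding RNA, was at 3.72, 1.79, 8.78 and 1.41 CPM in Control and 2.70, 1.94, 0.595 and 1.25 CPM in Prmt5 KO (log2 fold change -1.22, standard error 0.769, and -0.52 without Control 3). Prmt5 KO 3 and 4 were below every Control library. Rian, which hosts small nucleolar RNAs downstream of Meg3, had 25 counts in all, of which 20 were in Prmt5 KO 2. Mirg, a host of microRNAs, had 27, of which 14 were in Control 3 and 9 in Control 4. None of Dlk1, Rtl1, Rian and Mirg was tested, nor were Nnat and Ascl2. MicroRNA genes overlap the exons of Meg3, Mirg and Rtl1.

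In the Kcnq1 cluster on chromosome 7 the maternally expressed genes differed in level. Phlda2 (143501545 to 143503150, minus strand), which restrains placental growth, was at 29.1, 90.6, 78.5 and 56.6 CPM in Control and 28.5, 68.8, 39.9 and 27.2 CPM in Prmt5 KO (log2 fold change -0.62, standard error 0.400, adjusted p = 0.745 in edgeR). Control 1 was close to the lowest Prmt5 KO libraries, and the groups overlapped. Cdkn1c, which encodes the cell cycle inhibitor p57, was at 3.55, 1.79, 8.78 and 14.6 CPM in Control and 23.6, 11.4, 13.1 and 1.99 CPM in Prmt5 KO, so that Control 2 and Prmt5 KO 4 were alike in being low. Its log2 fold change of 0.80 was 0.30 without Prmt5 KO 1 and 1.44 without Control 4. Slc22a18, a transporter of the organic cation family, had the smallest p of the set: it was at 4.56, 1.79, 7.13 and 14.6 CPM in Control and 1.69, 2.33, 3.57 and 2.99 CPM in Prmt5 KO (7.02 ± 5.50 against 2.64 ± 0.815, SD, n = 4). The log2 fold change of -1.42 had a standard error of 0.724 (adjusted p = 0.657 in edgeR). Control 4 was the highest library, and without it the log2 fold change was -0.75. Ascl2, a basic helix-loop-helix factor of trophoblast, had 28 counts in all, of which 17 were in Control 1.

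Gnas (chromosome 2, 174284320 to 174346744, plus strand) encodes the stimulatory G protein subunit and, from other promoters, products of maternal or paternal origin. It was at 63.7, 57.6, 33.5 and 83.2 CPM in Control and 123, 77.3, 65.2 and 94.7 CPM in Prmt5 KO (59.5 ± 20.5 against 90.0 ± 24.9, SD, n = 4). The log2 fold change of 0.59 had a standard error of 0.303 (adjusted p = 0.663 in edgeR). Prmt5 KO 1 and 4 were above every Control library. Of its 21 transcripts with a count, 6 with 6 different starts had totals within 5% of the highest (2894 to 2983 counts), so use of their promoters cannot be told apart. The other 15 had fewer. Gnas-210, which lies upstream in the region of the maternally expressed Nesp product (174284320 to 174296895), had 18 counts in all 8 libraries, 12 of them in Control. Gm20721 overlaps Gnas exons on the opposite strand.

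The remaining paternally expressed genes stand alone or in pairs. Impact, an inhibitor of the stress kinase GCN2, was at 30.3, 38.8, 39.5 and 33.6 CPM in Control and 55.0, 36.0, 41.2 and 77.5 CPM in Prmt5 KO (log2 fold change 0.56, standard error 0.317). Zrsr1, a retrogene for a splicing factor related to U2AF, was at 2.70, 8.04, 4.94 and 14.4 CPM in Control and 14.5, 12.4, 21.6 and 16.7 CPM in Prmt5 KO. Only Prmt5 KO 2 was below the highest Control library, and the log2 fold change was 1.10 (standard error 0.595, adjusted p = 0.673 in edgeR). Zrsr1 lies within Commd1 on the opposite strand and its exon overlaps annotated Commd1 exons. Commd1 had a log2 fold change of -0.38. Peg10, which is derived from a retrotransposon and needed in the placenta, was even, at 6.33 to 8.78 CPM in Control and 7.17 to 11.7 in Prmt5 KO. Gpr1 and Zdbf2 are neighbours on chromosome 1. Gpr1, a receptor for chemerin, was at 5.24, 7.14, 6.04 and 6.68 CPM in Control and 6.58, 7.36, 6.70 and 40.6 CPM in Prmt5 KO, and its log2 fold change of 1.28 was 0.14 without Prmt5 KO 4. Zdbf2, a zinc finger gene, was at 9.30 to 16.5 CPM in Control and 8.78 to 27.9 in Prmt5 KO, with Prmt5 KO 2 the highest. Nnat, which encodes neuronatin, had 68 counts in all, of which 34 were in Prmt5 KO 1 and 19 in Control 3.

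Libraries of a group differed in their level of imprinted genes. Prmt5 KO 1 was the highest library for 9 of the 23 tested genes and for 17.8% of all genes tested. Prmt5 KO 4 was the lowest for 8 of the 23 and for 24.0% of all genes. The median over the tested imprinted genes, as log2(CPM + 1) less the Control mean, lay between -0.21 and 0.14 in the Control libraries and at 0.63, 0.23, 0.09 and -0.59 in Prmt5 KO 1 to 4, where that over all genes lay within 0.02 of 0 in every library. Within a group the median standard deviation of log2(CPM + 1) was 0.50 in Control and 0.58 in Prmt5 KO for imprinted genes, against 0.44 and 0.56 for all genes, whose median level was higher (29.0 against 14.9 CPM). Prmt5 KO 1, where Mest, Igf2 and Magel2 were highest, was also the library with 630 CPM of somatic markers, among them Acta2 at 208, Col3a1 at 115 and Col1a1 at 92.9 CPM. Not all markers of that list were high there. Pax8, at 10.3 CPM, was within its Control range (8.79 to 35.3 CPM), and Pax2 had 0 counts, Emx2 2, Tagln 3 and Tcf21 3. Peg3, at 327 CPM, was also highest in that library but by little, and Snrpn, at 119 CPM, was within the Control range. The part of other cells in these values was not tested, and in bulk RNA fewer cells of a type and less RNA per cell cannot be told apart.

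**Figure D4:**
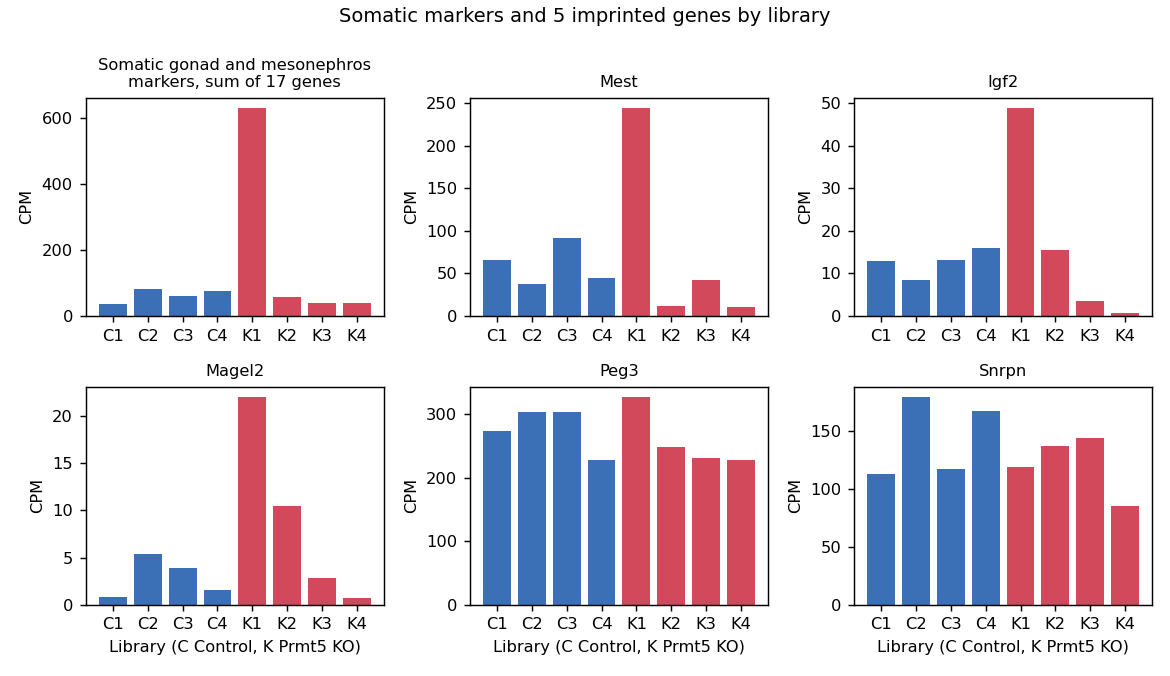
Summed level of 17 somatic gonad and mesonephros markers and levels of Mest, Igf2, Magel2, Peg3 and Snrpn (CPM, bars from 0) in Control libraries C1 to C4 and Prmt5 KO libraries K1 to K4. The markers reach 630 CPM in Prmt5 KO 1, where Mest (244 CPM), Igf2 (48.8) and Magel2 (21.9) are also highest, while Peg3 (327 CPM) and Snrpn (119 CPM) stay near the other libraries.

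Among factors that keep or erase imprints, Trim28, Dppa3, Dnmt1 and Tet1 were abundant and Zfp57 was nearly absent. Of 27 genes on that list, 25 had a value and 21 were tested. In edgeR, DESeq2 and limma voom 0 passed, against 0.0273%, 0.974% and 0.0091% of all genes tested. In DESeq2 1 of the 21 had no adjusted p. At an unadjusted p under 0.05 there were 0, 0 and 1, against 8.15%, 10% and 8.33% of all genes. The median log2 fold change was 0.04, against 0.03 over all genes. Zfp57, which binds methylated imprint control regions, had 8 counts in all, of which 7 were in Prmt5 KO 3. Zfp445, a zinc finger gene with a like role, had 62, of which 46 were in Prmt5 KO 2. Trim28, the corepressor that both recruit, was at 1140 to 1461 CPM in Control and 1071 to 1278 in Prmt5 KO (log2 fold change -0.22, standard error 0.115). Dnmt1, the maintenance methyltransferase, was at 212 to 318 CPM in Control and 295 to 344 in Prmt5 KO (0.29, standard error 0.154). Uhrf1, which brings DNMT1 to replicated DNA, was far lower at 17.9 to 25.7 and 16.5 to 33.4 CPM. Tet1, an enzyme that oxidises methylcytosine and acts in imprint erasure, was at 163 to 229 CPM in Control and 202 to 258 in Prmt5 KO. Tet2 was scarce, at 1.35 to 4.46 CPM in Control and 2.19 to 16.9 in Prmt5 KO. Dppa3, which protects methylation in the early embryo and marks germ cells, was at 416 to 555 and 328 to 504 CPM. The smallest p of the list belonged to Trim28, Dnmt1 and Kdm1b, a demethylase needed to set imprints in oocytes. Kdm1b was at 0.893 to 12.7 CPM in Control and 0.969 to 6.70 in Prmt5 KO. Its exons overlap those of Dek on the opposite strand, and reads of that pair cannot be told apart if counting ignored the strand.

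A further list of 52 imprinted genes outside the set, many of them imprinted only in placenta or brain, gave no call in edgeR. Of its 26 tested genes 0 passed in edgeR and 0 in limma voom, while 2 passed in DESeq2 (7.69%, against 0.974% of all genes). At an unadjusted p under 0.05 there were 4 in edgeR (15.4%, against 8.15%), 5 in DESeq2 (19.2%, against 10%) and 3 in limma voom (11.5%, against 8.33%). The groups did not overlap for 3 genes, Cd81, Pon3 and Mcts2 (11.5%, against 4.90%), and the median log2 fold change was 0.26. Cd81, a tetraspanin gene at the edge of the Kcnq1 cluster, was at 42.1, 30.8, 47.2 and 35.2 CPM in Control and 77.2, 90.3, 93.9 and 173 CPM in Prmt5 KO. Every Prmt5 KO library was above every Control library (log2 fold change 1.48, standard error 0.298, adjusted p = 0.188 in edgeR and 0.000723 in DESeq2), and the log2 fold change was 1.17 without Prmt5 KO 4. Its exons overlap R74862 on the opposite strand. Pon3, a paraoxonase gene near Peg10, was at 14.7, 6.70, 12.1 and 14.9 CPM in Control and 1.35, 2.33, 3.27 and 0.997 CPM in Prmt5 KO. All 4 Prmt5 KO libraries were below all Control libraries (log2 fold change -2.58, standard error 0.667, adjusted p = 0.292 in edgeR and 0.0202 in DESeq2). Trappc9, the third by p, was at 4.92 to 13.4 CPM in Control and 10.7 to 62.8 in Prmt5 KO, and its log2 fold change of 1.52 was 0.53 without Prmt5 KO 4.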

How the data were processed

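RNA from 8 sorted germ cell samples was sequenced. The authors deposited 1 file per library, with a whole-number read count for each Ensembl transcript, and the submitters' processing notes name GRCm38 and mm10. Not given in the sources used here are the aligner, the counting tool, the strandedness and the annotation. Transcripts were matched to GENCODE M21 on GRCm38 (64258 of 66262 identifiers). The design was written for gene counts. As the files hold transcripts, a gene's count was that of its transcript with most reads in all 8 libraries together.

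Genes were filtered by filterByExpr (minimum count 10, minimum total 15), scaled by TMM, and tested over all genes with edgeR's quasi-likelihood test (robust) and Benjamini-Hochberg adjustment at 0.05. Ratios, medians and sums were described without a test. The members and lists were chosen with earlier results of these data known. Genes named were Prmt5 and every member, with all libraries for those with an unadjusted p under 0.05, the 12 of highest CPM and partners of a locus. From the other lists the 3 of smallest p and set factors were named, and others were chosen after their values were seen, as were values per library of other members. No libraries were duplicates of each other. Library measures gave p from 0.257 to 0.371 (two-sided exact permutation, smallest possible 0.0286). The gene test was tested on simulated counts for 10990 genes (200 of them changed), and it called 3 of 10790 unchanged genes. The changed genes were above 10 CPM. Alternatives (17 per result, but 15 for Meg3, which missed the filter in 2) changed the scaling, tool, filter, robust estimation, block, gene value and libraries. Tools were edgeR 4.0.16, DESeq2 1.42.0 and limma 3.58.1 under R 4.3.3, with Python 3.11.15 and matplotlib 3.10.9.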

Additional observations from a re-analysis of the deposited data

Results flagged for a closer look

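Levels of members, marker sums and library measures were compared among the 4 libraries of each group, 74 sets of values in both groups together, looking for 1 library far from its 3 companions. In 10 cases there was one. About 1 in 20, or 3.7, would come by chance if values were independent and normal, which these are not.

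Prmt5 KO 1 lay above the other Prmt5 KO libraries for Mest (244 CPM, the others 10.5 to 41.8), Nnat (5.74 CPM, the others 0.498 to 0.775), the summed somatic gonad and mesonephros markers (630 CPM, the others 40.1 to 57.2) and the share of mitochondrial counts (11.3%, the others 9.01% to 9.29%). Prmt5 KO 2 was high for Rian (3.88 CPM, the others at most 0.249). Prmt5 KO 4 was high for Gpr1 (40.6 CPM, the others at most 7.36). Among the Control libraries, Control 1 was high for Igf2r (68.6 CPM), Usp29 (15.9 CPM) and Rian (0.338 CPM, which is 2 counts), and Control 3 for Nnat (10.4 CPM).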

How the results depend on the processing

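Of the imprinted genes, 0 passed under all 17 alternatives. Their median log2 fold change stayed above 0, from 0.15 (without Prmt5 KO 1 and 4) to 0.58, and from 0.26 to 0.58 on leaving out 1 library. The 3 genes called over all genes became 107 in DESeq2, 7 with no filter, 1 in limma voom, 1 with summed transcripts, 1 without Prmt5 KO 1 and 4, 0 without Control 2 and 3, and 1 or 2 on leaving out 1 library. Prmt5 was not among them in 12 of the 17 alternatives. With the replicate number as a block the count was 1. Deviations of same-numbered libraries correlated weakly (0.0016 to 0.070). Of the 4 Control libraries 3 correlated best with their own number, a hint from the data and not from the design, and Control 3 did so with Prmt5 KO 2, so the numbers were not taken to pair them.

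No imprinted gene had passed, and 8 changed sign. In limma voom Igf2 was at -0.80, Mest at -0.52 and Ndn at -0.13. With the replicate block Igf2 was at -0.64 and Mest at -0.81. Without Control 2 and 3 Peg3 was at 0.048, Ndn at -0.22 and Peg12 at 0.067. Without Prmt5 KO 1 and 4 Igf2 was at -0.43, Mest at -1.14, Igf2r at 0.092, Peg10 at -0.028 and Peg12 at 0.63. On leaving out 1 library Igf2 ran from -0.95 to 0.83, Mest from -1.47 to 0.74, Ndn from -0.18 to 0.20, Igf2r from -0.17 to 0.12, Peg12 from -1.25 to 0.14 and Plagl1 from -0.021 to 1.24. The cause was not tested. Without the filter 3 of 29 imprinted genes had an unadjusted p under 0.05 in edgeR, as had 1964 of all 21444 genes. These were Rtl1, Mirg and Rian, with 6, 27 and 25 counts in all 8 libraries. Better counted members reached that level in some other fits. Without Prmt5 KO 4 they were H19, Zim1 and Magel2 (3 of 23, and 1018 of all 11528 genes). With the replicate block it was Gnas (1 of 23, and 906 of all 10990 genes). On leaving out 1 library the number of members ran from 0 (without Control 3) to 3. The median of the maternal genes was -0.061 without the filter.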

Other observations

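Prmt5 KO 2 held reads of annotated transcripts that had 0 counts in the other 7 libraries. Igf2-203 (chromosome 7, 142653756 to 142666816), whose start lies upstream of that of the main transcript, had 10 counts there and 0 elsewhere, and the overlapping Igf2-207, Igf2-209 and Igf2-206 had 6, 6 and 4. Mest-206, at the most upstream start of Mest (chromosome 6, 30723547 to 30732714), had 7 counts there and 0 elsewhere. Mest-201 has the same start and had counts in every library, 192 in total and 3 in Prmt5 KO 2. Use of that start by Prmt5 KO 2 alone can therefore not be read from these counts. Zdbf2-203 had 12 counts in Prmt5 KO 2 and 1 in Control 4. Rian, with 20 of its 25 counts, and Zfp445, with 46 of 62, were also mostly from this library. These values come from 1 library with no replicate and were picked after they were seen.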
